A study of Arabidopsis thaliana with 12 samples.

Results

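AT-HF (locus AT4G26900, also named HISN4) encodes imidazole glycerol phosphate synthase of histidine synthesis in plastids. It was taken as the feature annotated with this gene and no other, which is 1 of 692 features with a single gene name and 1 of 3439 features on the array. No feature annotated with several genes lists AT-HF among them. The gene was chosen by its measured intensity on these same arrays, where its signal was low in the laf6 mutant, so the laf6 and WT values below describe that choice and carry no test. The RefSeq gene table places AT-HF on chromosome 4. No coordinates are printed, since no source used here states a genome build for the array.

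Plants make histidine in the plastid from phosphoribosyl pyrophosphate (PRPP) and ATP. The enzyme encoded by AT-HF joins 2 activities in one protein: a glutamine amidotransferase domain releases ammonia from glutamine, and a cyclase domain uses it to form the imidazole ring of imidazole glycerol phosphate. In Escherichia coli the same activities lie on separate proteins, HisH and HisF. The reaction also releases AICAR, an intermediate of purine synthesis, so the step touches both amino acid and nucleotide metabolism.

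Total RNA was measured on 6 arrays of laf6 and 6 arrays of WT, all dark-adapted Arabidopsis thaliana of the Landsberg ecotype. The labels describe laf6 as a mutant without the transporter atABC1, a gene now named SUFB, which works in the assembly of iron-sulfur clusters in plastids. No source used here states the age, the tissue, the growth conditions, the kind of mutation or the number of plants pooled. SUFB was not among the single-gene features, so the genotype could not be checked on its transcript. The deposited values are intensities without an absolute unit, running from 0 to about 100 on every array.

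The laf6 arrays were dimmer at the median of all features. Their median deposited intensity ran from 0.178 to 0.202, against 0.218 to 0.289 on the WT arrays. Features listed at 0 numbered 491 to 674 per laf6 array and 447 to 540 per WT array. Arrays with adjacent replicate numbers (1 and 2, 3 and 4, 5 and 6) resembled each other more than other arrays of their group did. Their deviations from the group mean correlated at -0.053 against -0.24 for other pairs in laf6, and at 0.024 against -0.26 in WT, over 2192 features with a signal on all arrays. The labels do not say whether such arrays are separate samples, so the errors below hold for the arrays and may be technical.

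AT-HF had a signal on all 12 arrays. Its deposited intensity was 0.0419, 0.174, 0.183, 0.0270, 0.187 and 0.252 on the laf6 arrays of replicates 1 to 6, against 1.40, 1.43, 1.44, 1.54, 1.07 and 1.08 on the WT arrays. The groups did not overlap: the lowest WT array stood 4.23 times above the highest laf6 array. Within laf6, replicates 1 and 4 lay well below the other arrays, and within WT, replicates 5 and 6 lay a little below the rest. The deposited intensity averaged 0.144 ± 0.0894 in laf6 and 1.33 ± 0.202 in WT (SD, n = 6 arrays each). Among all features, 17% had every laf6 array below every WT array in the values as deposited, and 9.33% after normalization.

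**Figure D1:**
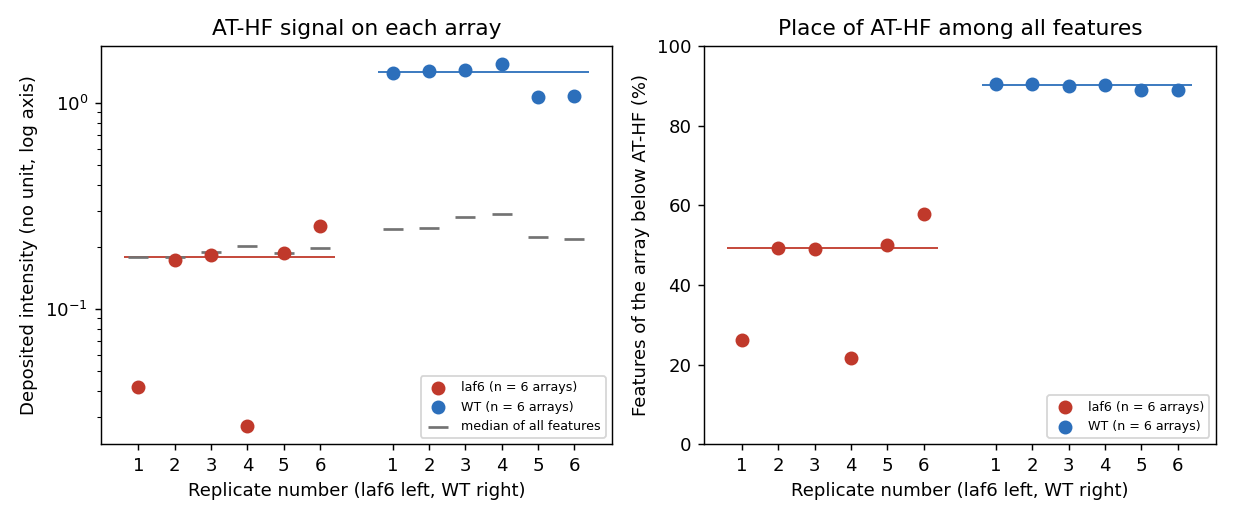
AT-HF on each array, laf6 left and WT right. The left panel gives the deposited intensity on a log axis with grey bars for the median of all features, and the right panel the percentage of the array's features with a lower value; coloured lines are group medians. The laf6 arrays sit between 0.0270 and 0.252, at or below the array median apart from replicates 5 and 6, and the WT arrays between 1.07 and 1.54.

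The place of AT-HF within each array does not depend on scaling between arrays. On laf6 arrays 26.1%, 49.3%, 49.1%, 21.7%, 50.1% and 57.9% of the features were dimmer than AT-HF in replicates 1 to 6, against 90.5%, 90.5%, 89.9%, 90.2%, 88.8% and 89.0% on WT arrays. AT-HF thus belonged to the brighter features on every WT array and stood in the middle or lower part of the range on every laf6 array. Its rank from the brightest feature ran from 1448 to 2693 in laf6 and from 325 to 384 in WT. Set against the median of its own array, its deposited intensity was 0.134 to 1.27 times that median in laf6 and 4.78 to 5.77 times in WT. These ranks compare spot signals, which also depend on the probe, and not amounts of transcript between genes.

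The median place of AT-HF differed by -40.9 percentage points between laf6 and WT. This was the 36th largest fall in median place among all 3439 features. Of 510 features with a median place of at least 85% in WT, AT-HF had the 6th largest such fall, while the median change of these features was -1.47 points. Ranks of bright features have more room below them than above, so a list chosen for brightness in WT leans towards falls.

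After quantile normalization, AT-HF averaged 0.173 ± 0.0967 in laf6 and 1.14 ± 0.0656 in WT (SD, n = 6 each). The log2 difference was -3.02 ± 0.45 (laf6 minus WT, SE from the limma fit over all features), an 8.14-fold lower level on that scale. All 36 pairs of a laf6 with a WT array had the lower value in laf6, and the smallest difference of any pair was -1.89 on the log2 scale. Between arrays of the same number, which the labels do not tie together, the log2 differences were -4.16, -2.50, -2.43, -4.88, -2.26 and -1.92 for replicates 1 to 6. The 4 smaller falls lie close together, and replicates 1 and 4 account for the larger ones.

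AT-HF was steady in WT and variable in laf6. The SD of its log2 values was 1.15 in laf6 and 0.08 in WT. In laf6 93.0% of the 2300 features with a signal on all 6 arrays had a smaller SD, and in WT 2.50% of 2598 such features did. Dim features varied more in general, so the level matters. Among 488 features with a mean within 0.5 log2 units of AT-HF in laf6 the median SD was 0.74, and 86.5% were steadier than AT-HF. Among 262 features so close to it in WT the median SD was 0.17, and 8.02% were steadier.

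Adjacent arrays show the same contrast. In laf6 the AT-HF values of replicates 1 and 2 were 1.66 apart on the log2 scale and those of replicates 3 and 4 were 2.42 apart, while a typical feature with a signal on both arrays differed by 0.38 and 0.37. Replicates 5 and 6 of laf6 were 0.37 apart, against 0.35 for a typical feature. In WT the corresponding AT-HF distances were 0.0027, 0.029 and 0.021, against 0.25 to 0.26 for a typical feature. The 2 low laf6 values therefore came one each from 2 adjacent pairs whose other array held AT-HF close to the array median. How spot quality or background bear on these 2 arrays was not tested, since the table holds no flags or background values.

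Among 448 single-gene features with a signal on all 12 arrays, AT-HF had the second largest fall. AT2G36480 ranked ahead of it with a log2 difference of -3.12 ± 0.17 (SE), a gap to AT-HF smaller than either error. The next fall, that of AT3G06200, was -2.44 ± 0.27. These falls are differences between mean log2 values. The laf6 mean of AT-HF was lowered by replicates 1 and 4 (-3.88 and -4.65), against a laf6 median of -2.23. Its WT median was 0.215, and ranks by median were not computed. Over all 692 single-gene features, including those listed at 0 on some arrays, AT-HF ranked 9th, and over all features it ranked 46th of 3439. In the same fit 13.8% of all features passed the threshold (limma, Benjamini-Hochberg adjusted p under 0.05) as lower in laf6 and 12.4% as higher.

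**Figure D2:**
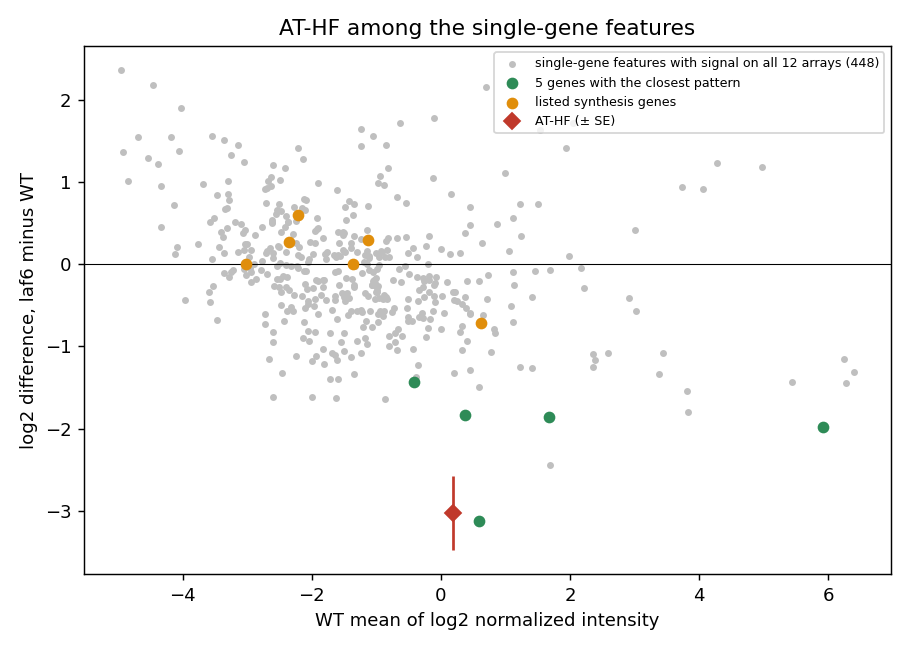
Log2 difference between laf6 and WT against the WT mean of log2 normalized intensity for the 448 single-gene features with a signal on all 12 arrays. AT-HF (diamond, bar of 1 SE) lies at -3.02 beside AT2G36480, below the cloud of features of like WT level; green points are the 5 genes with the closest pattern and orange points the 6 listed synthesis genes with a signal on all arrays.

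The 5 single-gene features closest in pattern to AT-HF were found by the root mean square distance between profiles over the 12 arrays, each centred on its own mean. They were AT2G36480 (distance 0.84 log2 units), AT3G44570 (0.91), AT3G57120 (0.92), AT4G31530 (0.94) and AT3G04650 (0.95). In each of them every laf6 array lay below every WT array, which the measure favours, since the AT-HF profile is mostly the step between the groups. Among all features 9.33% did so after normalization. The log2 differences of these 5 genes ran from -3.12 to -1.43.

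AT2G36480 matched AT-HF in the size of the step but not in the order of the laf6 arrays. Its normalized intensity was 0.231, 0.161, 0.239, 0.151, 0.151 and 0.133 in laf6 replicates 1 to 6, against 1.29, 1.23, 1.89, 1.65, 1.58 and 1.47 in WT. Neither replicate 1 nor replicate 4 of laf6 was its lowest array. AT3G57120 ran from 0.151 to 0.387 in laf6 and from 0.631 to 0.870 in WT. Its lowest laf6 array was replicate 4, as for AT-HF. AT3G44570 ran from 0.223 to 0.461 in laf6 and from 1.14 to 1.501 in WT, with replicate 1 the lowest laf6 array.

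AT3G04650 stood at 0.697 to 1.003 in laf6 and at 2.69 to 3.76 in WT, with replicate 1 again the lowest laf6 array. AT4G31530, a far brighter feature, stood at 13.6 to 16.5 in laf6 and at 56.0 to 61.3 in WT. The size of its step depended on the scaling: its log2 difference was -1.98 after quantile normalization, -1.56 as deposited, -1.16 with median scaling and -1.14 with 75th percentile scaling. These last 2 features kept a narrow range in laf6, where they were the brightest of the 5, and dim features varied more in general. None of the 5 had a laf6 range as wide as that of AT-HF. On the log2 scale AT-HF ran from -4.65 to -1.81 in laf6, and AT3G57120, the widest of the 5, from -2.72 to -1.37.

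**Figure D3:**
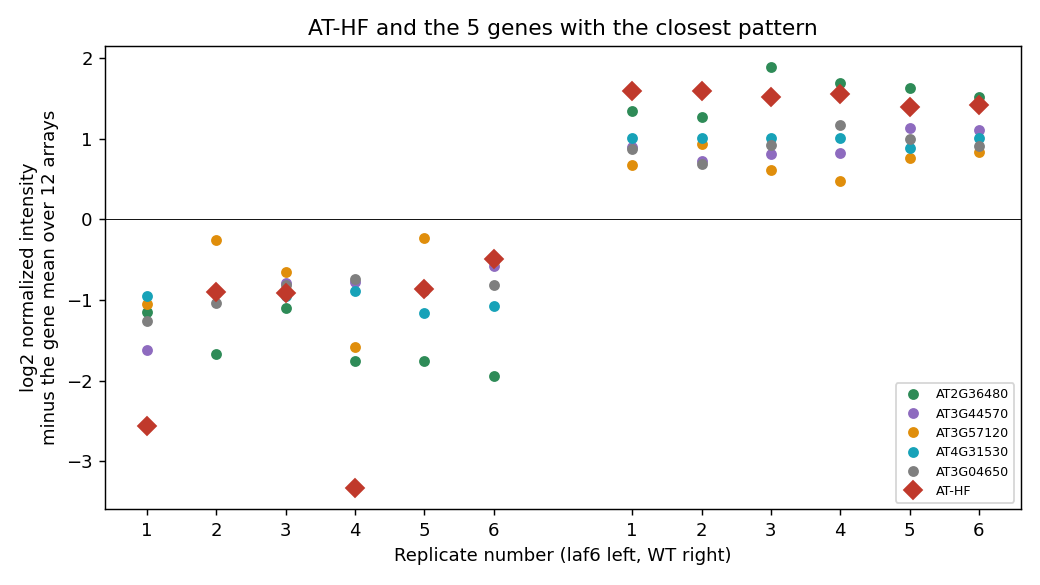
Log2 normalized intensity minus the gene's mean over the 12 arrays, for AT-HF (diamonds) and the 5 genes with the closest pattern (circles), laf6 left and WT right, 1 point per array. All laf6 points lie below 0 and all WT points above it; AT-HF is far below the other genes on laf6 replicates 1 and 4.

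AT-HF was the only one of the 11 listed histidine synthesis genes with a single-gene feature, so whether other steps of the pathway changed was not analysed here. Of the other 10 genes, 2 occur only in features annotated with several genes, which are not read as either gene. None of the 24 listed genes of glutamine and ammonia assimilation, with other glutamine amidotransferases, had a single-gene feature. None of the 20 protein-coding genes nearest to AT-HF on the chromosome, 10 on each side, had one either.

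Of the purine synthesis and PRPP list 3 of 21 genes were measured, and of other amino acid synthesis 5 of 95. Together 1 of these 8 genes was lower in laf6, none was higher and 7 did not pass. Over all features 13.8% were lower and 12.4% higher, 26.2% in either direction, so 1 of 8 is no more than the background. An unadjusted p under 0.05 was reached by 3 of the 8 (37.5%), near the 35.3% of all features. Their median log2 difference was 0.14, against -0.02 over all features.

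The gene that passed was AT5G10920, which encodes argininosuccinate lyase, the last enzyme of arginine synthesis. Its normalized intensity was 0.672, 0.924, 0.885, 0.927, 1.04 and 1.28 in laf6 replicates 1 to 6, against 1.34, 1.22, 1.49, 1.71, 1.62 and 1.93 in WT. The groups overlapped in 1 place, laf6 replicate 6 lying above WT replicate 2. AT5G10920 fell by 0.71 ± 0.16 on the log2 scale (SE, limma adjusted p = 0.00584), well short of AT-HF in size. With adjacent replicate numbers averaged to 3 samples a group the call was lost (adjusted p = 0.0845, range over 22 alternatives 0.000197 to 0.0845).

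Purine synthesis is the pathway that holds AICAR, the by-product of the AT-HF reaction. Its listed gene PUR9 (AT2G35040) had no feature, so the values below say nothing of that step. AT1G31220 (PUR3), a formyltransferase of purine synthesis, ran from 0.277 to 0.429 in laf6 (median 0.319) and from 0.124 to 0.315 in WT (median 0.216). Its log2 difference of 0.59 ± 0.22 did not pass (limma adjusted p = 0.0689, range over alternatives 0.0339 to 0.531). AT1G31220 was called higher with the replicate number as a block (adjusted p = 0.0413), without replicates 1 and 2 of both groups (0.72, adjusted p = 0.0441), without WT replicate 1 (adjusted p = 0.0464) and without WT replicate 2 (adjusted p = 0.0339). AT2G35390 and AT2G44530, which encode synthases of PRPP, the starting compound of both pathways, had log2 differences of -0.00058 ± 0.11 (adjusted p = 1.0) and 0.27 ± 0.40 (adjusted p = 0.680). With the values as deposited AT2G35390 was called lower (-0.42, adjusted p = 0.0163), in a table whose median over all features was -0.45.

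Among the other amino acid genes, AT3G58610, the ketol-acid reductoisomerase of branched-chain amino acid synthesis, ran from 0.479 to 0.712 in laf6 and from 0.376 to 0.517 in WT (log2 difference 0.30 ± 0.12, adjusted p = 0.102). AT3G23940, the dihydroxyacid dehydratase of the same pathway and itself an iron-sulfur enzyme, ran from 0.0638 to 0.292 in laf6 and from 0.0737 to 0.175 in WT (-0.0013 ± 0.37, adjusted p = 1.0). CBL, the cystathionine beta-lyase of methionine synthesis, was listed at 0 on 1 laf6 array, replicate 1. Its log2 difference of 0.35 ± 0.95 did not pass (adjusted p = 0.844), but without that array it was 1.28 (adjusted p = 0.0263). AT3G53580, the diaminopimelate epimerase of lysine synthesis, was listed at 0 on 3 laf6 and 2 WT arrays, and its log2 difference of -0.06 ± 1.40 rests on the floor (adjusted p = 1.0).

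The size of the AT-HF difference varied with the settings while its sign did not. With the values as deposited it was -3.59 ± 0.53 (SE), in a table where the median of all features was itself -0.45 lower in laf6. With median, 75th percentile and cyclic loess scaling it was -3.19, -3.16 and -3.13. An offset of 0.1 before log2, which compresses dim values, gave -2.28. Leaving out laf6 replicate 4, the lowest array, gave -2.66 ± 0.32, and leaving out laf6 replicate 1 gave -2.80 ± 0.44. Without replicates 1 and 2 of both groups it was -2.82 ± 0.58.

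**Figure D4:**
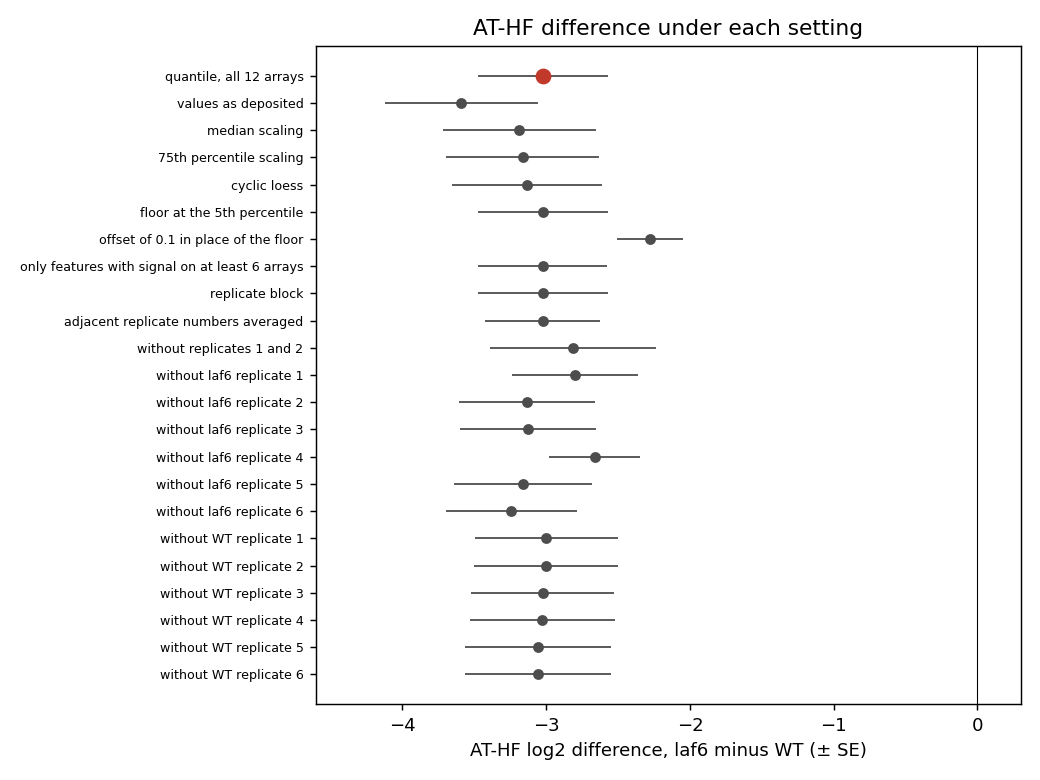
AT-HF log2 difference, laf6 minus WT, with 1 SE under the quantile setting on all 12 arrays (red) and under each of 22 alternatives. All points lie between -3.59 and -2.28.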

How the data were processed

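Intensities on a linear scale were deposited by the authors, 1 per feature and array, and no source used here states the scanner, background correction or scaling. The highest array median was 1.62 times the lowest, so arrays were quantile-normalized. A floor of 0.00597, the 1st percentile of positive values after normalization, was set before taking log2. All 3439 features were fitted with limma 3.58.1 (lmFit and eBayes) in R 4.3.3, laf6 against WT, without covariates, with two-sided p-values adjusted by Benjamini-Hochberg over all features and a threshold of 0.05. The limma fit alone was tested on simulated log2 values, drawn independently for each array. Normalization, the floor and any likeness between arrays were not part of that test. Gene names came from the platform annotation through Entrez identifiers and the RefSeq gene table of TAIR10.1, which matched 690 of 692 single-gene features. The genes named are AT-HF, the measured list members, and the 5 features closest in pattern; AT3G06200, outside this rule, was named after its value was seen, as the fall next in size. AT-HF and the lists were chosen with earlier results of these data known. Percentages of dimmer features use deposited values. The number of arrays limits the precision.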

Additional observations from a re-analysis of the deposited data

Results flagged for a closer look

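Within groups of 6 arrays, 1 array stood far from the other 5 in 4 of 28 groups, from 14 genes. In 3 of the 4 it was laf6 replicate 1, one of the 2 arrays low for AT-HF. On the log2 normalized scale it was low for AT3G44570 (-2.16), for AT2G44530 (-3.79) and for CBL, which was listed at 0 there and stood at the floor (-7.39). AT3G44570 was picked for its likeness to AT-HF on these same arrays, so its low value there is not independent of AT-HF. For AT4G31530 the WT array of replicate 5 was low (5.81), the other 5 WT arrays sharing 1 normalized value. AT-HF itself was not among the 4, since 2 of its laf6 arrays were low together.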

How the results depend on the processing

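The AT-HF difference stayed below 0 under all 22 alternatives (-3.59 to -2.28), and ran from -3.24 to -2.66 over single arrays left out. Each lay within 1 SD between arrays, pooled over the groups, of the quantile value. That is a wide yardstick, since the SD was 1.15 in laf6 and 0.08 in WT. Features called higher numbered 428 and lower 473, and as deposited 252 and 903. With adjacent replicate numbers averaged, which leaves 3 samples a group, 289 were higher and 256 lower, so that more features were higher than lower. Leaving out single arrays gave 387 to 421 higher and 425 to 476 lower. Of the 8 listed synthesis genes 1 was called. The count was 2 as deposited, where AT2G35390 was added (-0.42), and with the replicate block and without replicates 1 and 2, where AT1G31220 was added, 0 with adjacent numbers averaged, and 1 to 2 with single arrays left out. In that averaged fit the threshold was missed by AT5G10920 (-0.71).

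Several listed genes with differences near 0 changed sign. AT2G35390 was 0.0059 with 75th percentile scaling, 0.037 with cyclic loess, 0.0016 with the offset, 0.0097 without replicates 1 and 2 and -0.066 to 0.064 with single arrays left out. AT3G23940 was 0.031 with the offset, 0.082 without replicates 1 and 2 and -0.25 to 0.19 with single arrays left out. AT3G53580 was 0.059 with the floor at the 5th percentile, 0.0043 with the offset and -0.66 to 0.52 with single arrays left out. As deposited, AT2G44530 was -0.19, AT3G58610 -0.13 and CBL -0.031.

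With the replicate number as a block the AT-HF difference was -3.02 and 414 features were higher and 458 lower. Deviations of same-numbered laf6 and WT arrays correlated at 0.095 to 0.22, against a mean of -0.036 for laf6 and WT arrays of different numbers. Each of the 12 arrays was closest to its own number among the 6 arrays of the other group. Arrays of its own group were not compared here, and the match is a hint from the data rather than the design.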
